A study of Drosophila melanogaster with 6 samples.

Results

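Peptidoglycan recognition proteins (PGRPs) are the molecules with which *Drosophila* detects, and in part digests, the cell wall of bacteria. The 10 PGRP genes described here are the sensing and enzymatic members with a role in gut immunity, chosen by gene symbol among the 17558 genes of the count table, and all 10 were found in it. They are *PGRP-LC*, *PGRP-LE*, *PGRP-SA* and *PGRP-SD* (receptors), *PGRP-LF* and *PGRP-LA* (non-catalytic members that modulate signalling), and *PGRP-LB*, *PGRP-SC1a*, *PGRP-SC1b* and *PGRP-SC2* (amidases). Expression was measured by bulk RNA-sequencing of enteroendocrine cells (EEs), the hormone-secreting cells of the gut epithelium, with 3 control and 3 *pros*-depleted samples. *pros* encodes Prospero, a homeodomain transcription factor that marks EEs.

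Control flies carried prosV1-Gal4ts and UAS-GFP, and *pros*-depleted flies carried UAS-*pros-RNAi* in addition, so that every sample shared the driver and the reporter. The genotype labels of replicates 2 and 3 spell the driver with Gal5ts and Gal6ts, which were read as spellings of the same driver. The flies were females 5 to 7 days old that were then kept for 7 days at 29 °C, where the temperature-sensitive repressor of Gal4 no longer acts and GFP and the hairpin RNA are made in EEs. Guts were pooled for each sample, around 20000 live GFP+ cells were sorted, and the little RNA they gave was amplified ahead of library construction. Cells were therefore selected by the same driver that depleted *pros*, and the question was how EEs depleted of Prospero differ from control EEs.

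In flies, peptidoglycan of the diaminopimelic acid type, found in most Gram-negative bacteria, activates the Imd pathway through PGRP-LC at the cell surface and PGRP-LE inside the cell, and ends in nuclear entry of the NF-kB factor Relish. Amidases cut peptidoglycan into fragments that no longer signal, so that they restrain the response to the resident bacteria, and several of them are themselves induced by Relish. In EEs, PGRP-LC and the Imd pathway are known to respond to bacterial acetate and to promote expression of the hormone Tachykinin.

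The 6 libraries held between 27183747 and 40766059 counts. In CPM (counts relative to library size after TMM scaling) the 10 PGRP genes summed to 613, 534 and 559 in control samples and to 744, 639 and 648 in *pros*-depleted samples. A floor of 3 counts corresponded to 0.0755 to 0.110 CPM and covers counting error only. *pros* itself fell from 628 ± 182 to 154 ± 14.3 CPM (SD, n = 3; log2 fold change -2.03, adjusted p = 0.000763 by edgeR). Of 16 EE markers, 14 were called lower and their summed level went from 130160 to 146078 CPM in control samples to 12854 to 17088 CPM in *pros*-depleted samples, so that the sorted cells of both groups held EE transcripts, at a lower level after depletion. Of 14 enterocyte markers 8 were called higher, and of 9 progenitor markers 5 were called higher. In bulk samples, fewer cells of a type and less RNA per cell cannot be told apart.

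A gene was called when its Benjamini-Hochberg adjusted p lay below 0.01 and its log2 fold change exceeded 0.5 in either direction. Of 10374 genes, 491 (4.73%) were higher and 826 (7.96%) were lower after depletion by this measure. All 10 PGRP genes passed the filter on low counts, and 1 of them, *PGRP-LC*, was called higher by edgeR, whereas DESeq2 called 4 higher (also *PGRP-SC1a*, *PGRP-SC1b* and *PGRP-SC2*). Over all genes, DESeq2 called 942 higher and 1266 lower among 15726, of which 4250 had no adjusted p. Both tools called 0 PGRP genes lower. At an adjusted p under 0.05 in edgeR, 3 PGRP genes were higher and 1 lower, beside 1184 and 1519 of all 10374 genes. At an unadjusted p under 0.05 in edgeR, 4 PGRP genes were higher and 2 lower. The share of all genes at that threshold was not computed, but every gene with an adjusted p under 0.05 also meets it. At least 1184 genes higher and 1519 lower therefore met it, and this large background also applies to the lists below. The log2 fold change was positive for 7 and negative for 3, with a median of 0.25 beside 0.02 over all genes tested. The 3 *pros*-depleted samples lay above the 3 control samples for 3 PGRP genes (*PGRP-LC*, *PGRP-SC1a* and *PGRP-SC1b*), where 20.4% of all genes tested did so. They lay below for 2 (*PGRP-LA* and *PGRP-LE*), where 22.5% of all genes did so, and the groups overlapped for the other 5. The shares of PGRP genes without overlap between the groups are near those of all genes tested, and the description below is therefore gene by gene. With 3 samples against 3, an exact two-sided permutation test of a single gene cannot go below p = 0.1, which all 5 non-overlapping PGRP genes reached.

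**Figure D1:**
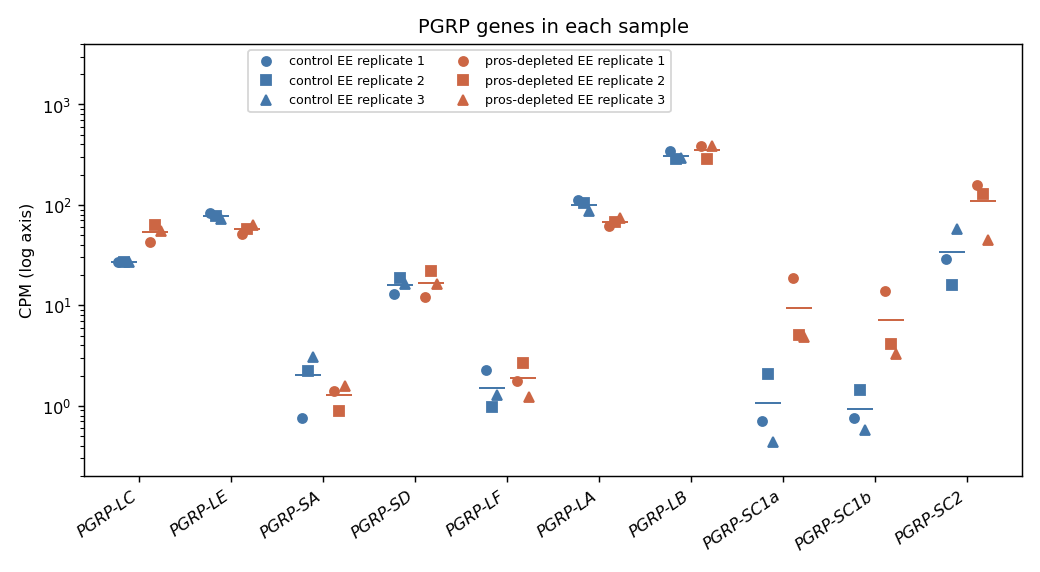
CPM of each PGRP gene (log axis) in the 3 control samples (blue) and the 3 *pros*-depleted samples (orange), with the marker shape for the replicate number and a bar at each group mean. The control samples of *PGRP-LC* sit together at 26.9 to 27.1 CPM below all *pros*-depleted samples, whereas samples of the *PGRP-SC* genes spread widely within each group.

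Levels were first compared between genes per length, as RPKM (CPM per kilobase of exonic length). In control EEs the most abundant PGRP transcript was that of *PGRP-LB*, a secreted and cytosolic amidase, at 174 ± 18.6 RPKM (SD, n = 3). *PGRP-LA* followed at 48.1 ± 5.83, *PGRP-SC2* at 45.5 ± 28.4 and *PGRP-LE* at 37.4 ± 2.53 RPKM, and these neighbours overlapped. *PGRP-SD* at 22.0 ± 3.97 RPKM lay below all samples of *PGRP-LE*, and *PGRP-LC* at 7.45 ± 0.0214 RPKM lay below all samples of *PGRP-SD*. The 4 genes at the bottom, *PGRP-SA* (1.98 RPKM), *PGRP-SC1a* (1.82 RPKM), *PGRP-LF* (1.11 RPKM) and *PGRP-SC1b* (0.558 RPKM), could not be ranked, since each overlapped its neighbour. Control EEs thus held more transcript of the intracellular receptor *PGRP-LE* than of the surface receptor *PGRP-LC*, by 4.69-fold to 5.39-fold in RPKM in the 3 samples. The size of this ratio depends on the exonic lengths, 2073 bp for *PGRP-LE* and 3619 bp for *PGRP-LC*. In CPM, without division by length, the control means were 77.5 and 27.0.

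In *pros*-depleted EEs the order of the means differed below *PGRP-LB*. *PGRP-LB* at 198 ± 31.3 RPKM and *PGRP-SC2* at 148 ± 78.5 RPKM headed it and overlapped. Both lay above *PGRP-LA* at 32.6 ± 2.94, *PGRP-LE* at 27.7 ± 2.75, *PGRP-SD* at 23.4 ± 6.98, *PGRP-SC1a* at 16.2 ± 13.4 and *PGRP-LC* at 14.8 ± 2.78 RPKM. Each of these 5 overlapped its neighbour in the order, and *PGRP-SC1b* (4.31 RPKM), *PGRP-LF* (1.39 RPKM) and *PGRP-SA* (1.27 RPKM) came last.

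By share of the family's summed RPKM, *PGRP-LB* made up 51.2 ± 4.07% in control EEs and 43.1 ± 10.5% in *pros*-depleted EEs, with overlapping samples. *PGRP-SC2* made up 10.9, 6.85 and 21.7% in control EEs and 38.2, 37.9 and 15.3% after depletion, so that its share in *pros*-depleted replicate 3 lay below that in control replicate 3. The shares of *PGRP-LA* (14.2% against 7.18% on average) and *PGRP-LE* (11.1% against 6.11%) did not overlap between the groups and were the lower ones after depletion. Shares also fall when the family sum rises, and this sum was 356, 309 and 354 RPKM in control samples and 552, 457 and 393 RPKM in *pros*-depleted samples. Summed over the 4 amidases, the level was 235, 186 and 243 RPKM in control samples and 466, 346 and 287 RPKM in *pros*-depleted samples. Summed over the 4 receptors, it was 66.1, 72.4 and 68.0 RPKM against 54.9, 76.7 and 69.9 RPKM. The amidase sums did not overlap between groups and the receptor sums did. *PGRP-LB* alone overlapped, as did the *PGRP-SC* genes summed (40.3, 25.5 and 77.7 RPKM in control samples, 251, 184 and 70.3 RPKM in *pros*-depleted samples). How often sums of other genes separate the groups was not computed.

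**Figure D2:**
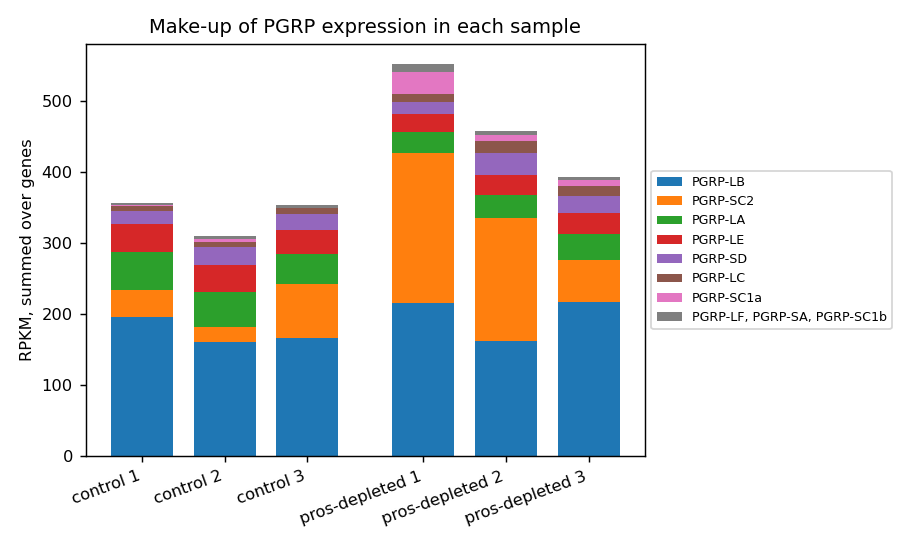
Stacked bars of RPKM for each PGRP gene in each of the 6 samples, with 3 low genes summed in gray. *PGRP-LB* is the largest block in control samples, and in *pros*-depleted replicates 1 and 2 the *PGRP-SC2* block, at 211 and 173 RPKM, is close to the *PGRP-LB* block, at 215 and 161 RPKM.

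*PGRP-LC*, the transmembrane receptor that activates the Imd pathway, was the PGRP gene called higher. Its level was 26.9, 26.9 and 27.1 CPM in control EEs and 42.8, 62.8 and 54.8 CPM after depletion. The control samples were almost equal, and even the lowest *pros*-depleted sample, replicate 1, lay above them. At 1069, 754 and 940 counts, counting error alone is larger than this spread, so the near equality is not a measure of how little the level varies. The level rose 1.98-fold, a log2 fold change of 0.99 (SE 0.183, 95% confidence interval 0.57 to 1.41, adjusted p = 0.00625 by the quasi-likelihood test of edgeR). The gene lies on BDGP6 3L 9338810-9348336 on the plus strand, with 10 exon blocks and 10 annotated transcripts that give several alternative extracellular domains, and the table sums them. The call was held without *pros*-depleted replicate 1 (log2 fold change 1.14, adjusted p = 0.00644) and was lost in each of the other 5 fits that left out a sample, with adjusted p from 0.0138 to 0.0326 and log2 fold changes from 0.86 to 0.99.

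*PGRP-LE*, the receptor for small peptidoglycan fragments inside the cell, had 83.1, 76.8 and 72.6 CPM in control samples and 51.6, 57.7 and 63.0 CPM in *pros*-depleted samples. All *pros*-depleted samples were lower than all control samples, by less than the threshold (log2 fold change -0.43, SE 0.162, 95% confidence interval -0.80 to -0.06, adjusted p = 0.0863), and the gene was not called. It lies on X 15801153-15803880 on the minus strand, with 6 exon blocks. Since the ratio of these 2 receptors does not depend on library scaling, it was computed within each sample. *PGRP-LC* over *PGRP-LE* in RPKM was 0.186, 0.201 and 0.213 in control samples and 0.474, 0.623 and 0.498 in *pros*-depleted samples. The groups were well apart and the mean ratio was 2.66 times as high after depletion, which is a description of genes picked for their changes and carries no test.

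The other receptors are soluble proteins of low or middling level. *PGRP-SD*, a secreted protein known to promote signalling through both the Toll and the Imd pathway, had 12.9, 18.6 and 16.2 CPM in control samples and 12.1, 22.1 and 16.4 CPM in *pros*-depleted samples. Its groups covered nearly the same range (log2 fold change 0.09, SE 0.253, 95% confidence interval -0.49 to 0.67, adjusted p = 0.827). *PGRP-SA*, the circulating receptor that activates the Toll pathway upon Gram-positive bacteria, had 30, 62 and 107 counts in control samples and 45, 24 and 48 counts in *pros*-depleted samples. These counts overlapped, and the interval of the log2 fold change, -1.83 to 0.56, leaves both a fall and a modest rise possible at this depth. *PGRP-SD* is a single-exon gene on 3L 7651180-7651900, and 35 bp of it overlap an exon of *CG7492* on the opposite strand. *PGRP-SA* lies on X 11561643-11562779, with 3 exon blocks.

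*PGRP-LA* and *PGRP-LF* flank *PGRP-LC* on chromosome 3L, all in the same orientation within 17158 bp. *PGRP-LA* lies on 3L 9334332-9338336 and ends 473 bp before *PGRP-LC*, and *PGRP-LF* lies on 3L 9349609-9351489 and starts 1272 bp after it. *PGRP-LA* has no amidase activity and is known to promote Imd signalling in barrier epithelia, and *PGRP-LF* is a membrane protein that binds PGRP-LC and inhibits it.

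*PGRP-LA* had 111, 104 and 87.3 CPM in control samples and 62.3, 68.2 and 74.6 CPM in *pros*-depleted samples. Every *pros*-depleted sample was lower, by 1.47-fold overall (log2 fold change -0.56, SE 0.172, 95% confidence interval -0.95 to -0.17, adjusted p = 0.0453), and the gene was not called at the threshold of 0.01. The neighbours *PGRP-LA* and *PGRP-LC* therefore had estimates of opposite sign. Their ratio in RPKM, *PGRP-LC* over *PGRP-LA*, was 0.140, 0.150 and 0.180 in control samples and 0.398, 0.534 and 0.425 in *pros*-depleted samples. That these do not overlap follows from the opposite changes for which the pair was picked, and the ratio carries no test. *PGRP-LF* was close to the bottom in both groups, at 90, 27 and 45 counts in control samples and 56, 73 and 37 counts in *pros*-depleted samples. Its groups overlapped (log2 fold change 0.31, 95% confidence interval -0.70 to 1.32), and 602 bp of its exons overlap *UGP* on the opposite strand. Since no source states whether counting used strand, reads of these overlaps cannot be told apart.

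**Figure D3:**
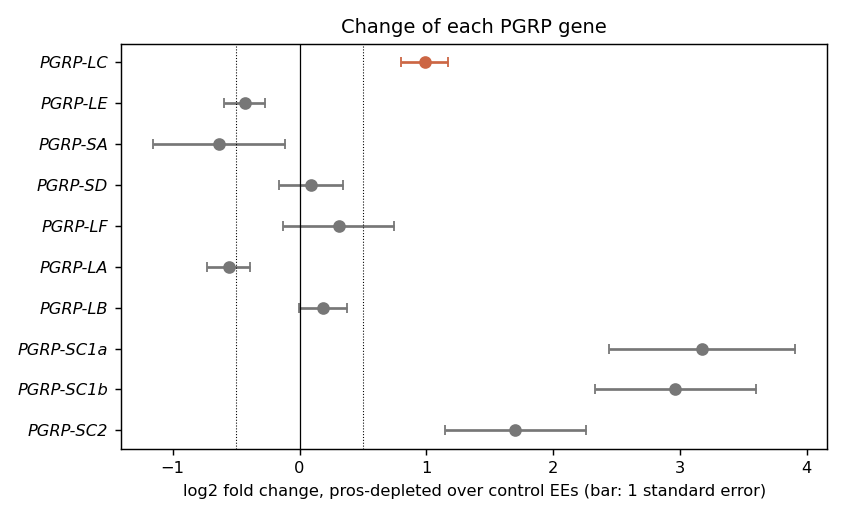
Log2 fold change of each PGRP gene between *pros*-depleted and control EEs, with bars of 1 standard error, a solid line at 0 and dotted lines at the fold change threshold of 0.5 in either direction. *PGRP-LC* (orange) is the gene called; the 3 *PGRP-SC* genes have larger estimates, 1.70 to 3.18, with wider bars.

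*PGRP-LB* degrades peptidoglycan both outside and inside the cell and is the main brake on the Imd response in the midgut. Its level was 346, 285 and 293 CPM in control samples and 382, 287 and 384 CPM in *pros*-depleted samples. The groups overlapped and the gene was not called (log2 fold change 0.19, SE 0.187, 95% confidence interval -0.24 to 0.62, adjusted p = 0.501). *PGRP-LB* lies on 3R 11452849-11460552 on the minus strand, with 6 annotated transcripts, and 45221 bp separate it from *pros*.

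The remaining amidases form a cluster of 7963 bp on chromosome 2R, with *PGRP-SC1a* at 8709733-8710320, *PGRP-SC1b* at 8713446-8715094 and *PGRP-SC2* at 8716950-8717695, each of a single exon block on the plus strand. *PGRP-SC1a* and *PGRP-SC1b* are near-identical copies, and reads shared between them could be split or dropped in counting, so the level of each is uncertain. The exonic length of 1649 bp for *PGRP-SC1b*, against 588 bp for *PGRP-SC1a*, lowers the RPKM of the former.

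*PGRP-SC1a* had 28, 58 and 15 counts in control samples and 594, 139 and 146 counts in *pros*-depleted samples, and *PGRP-SC1b* had 30, 40 and 20 against 446, 112 and 99 counts. For both, all *pros*-depleted samples were higher than all control samples, and *pros*-depleted replicate 1 stood far above the other *pros*-depleted samples. In CPM, *PGRP-SC1a* was 1.07 ± 0.878 against 9.50 ± 7.89 (SD, n = 3), and the log2 fold change was 3.18 (SE 0.734, 95% confidence interval 1.49 to 4.86, adjusted p = 0.0155). *PGRP-SC1b* was 0.920 ± 0.449 against 7.11 ± 5.96 CPM, and its log2 fold change was 2.96 (SE 0.636, 95% confidence interval 1.5 to 4.43, adjusted p = 0.0115). These estimates were larger than that of *PGRP-LC*, yet the spread between samples was larger too and neither gene was called by edgeR. DESeq2 called both (adjusted p = 1.9e-06 for *PGRP-SC1a* and 1.33e-06 for *PGRP-SC1b*), as did edgeR with no filter on low counts (adjusted p = 0.00416 and 0.00312), so that their call depends on the tool and the filter. Summed as 1 gene, the copies had a log2 fold change of 3.08 (adjusted p = 0.0122). Leaving out a sample gave log2 fold changes from 2.24 (without *pros*-depleted replicate 1) to 4.03 (without control replicate 2) for *PGRP-SC1a*, and from 2.02 to 3.40 for *PGRP-SC1b* with the same samples left out. The share of *PGRP-SC1a* in the counts of both copies was between 42.9 and 59.6% in the 6 samples, so that neither copy dominated in either group.

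*PGRP-SC2* had 28.9, 15.8 and 57.2 CPM in control samples and 157, 129 and 44.9 CPM in *pros*-depleted samples. The groups overlapped, because *pros*-depleted replicate 3 lay below control replicate 3, while the other 2 *pros*-depleted samples were above all controls. The log2 fold change was 1.70 (SE 0.555, 95% confidence interval 0.43 to 2.98, adjusted p = 0.0557) and edgeR did not call the gene, while DESeq2 did (adjusted p = 0.00251). Leaving out a sample gave estimates from 1.35 (without control replicate 2) to 2.30 (without control replicate 3). The gene did not keep a fixed proportion to its neighbours in the cluster, with 19.8, 4.51 and 56.8 counts of *PGRP-SC2* for each count of both *PGRP-SC1* copies in control samples and 4.83, 14.1 and 5.58 in *pros*-depleted samples.

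Since *PGRP-SC* genes are expressed in enterocytes, the absorptive cells of the gut, their levels were set beside the 14 enterocyte markers. The summed level of these markers was 2231, 1642 and 3286 CPM in control samples and 15461, 9343 and 7411 CPM in *pros*-depleted samples, with 12 of the 14 above in all *pros*-depleted samples. The other 2 had estimates of the opposite sign, *mex1* (log2 fold change -1.01, below in all *pros*-depleted samples) and *Jon99Ci* (-1.22, overlapping), of which DESeq2 called 1 lower and edgeR 0. Within each group, *PGRP-SC2* followed the order of this sum, with control replicate 3 and *pros*-depleted replicate 1 highest. *PGRP-SC1a* did not follow it in control samples, where replicate 2 had the lowest marker sum and the highest *PGRP-SC1a* level.

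For each 1000 CPM of enterocyte markers there were 12.9, 9.61 and 17.4 CPM of *PGRP-SC2* in control samples and 10.2, 13.8 and 6.06 CPM in *pros*-depleted samples. The corresponding values of *PGRP-SC1a* were 0.316, 1.26 and 0.131 against 1.2, 0.545 and 0.647. Set against this sum, neither gene separated the groups. The sum is weighted to its most abundant genes. In *pros*-depleted replicate 1, *alphaTry* held 4114 CPM and *Jon65Aiv* 4001 CPM of it, and in control replicate 2 *mex1*, which fell after depletion, held 785 CPM. Single markers or other weightings were not used, and the outcome may depend on that choice. The markers called higher with the largest changes were *Jon65Aiii* (log2 fold change 4.66), *lambdaTry* (4.0) and *Jon65Aiv* (3.68), all digestive serine proteases. The part of enterocyte transcripts in the *PGRP-SC* levels was not tested.

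**Figure D4:**
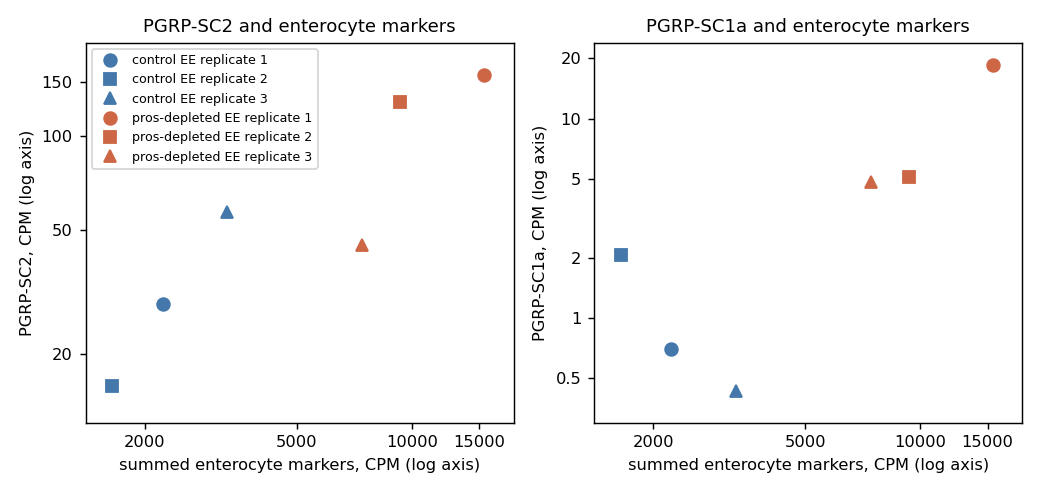
CPM of *PGRP-SC2* (left) and *PGRP-SC1a* (right) against the summed CPM of 14 enterocyte markers in each of the 6 samples, all on log axes, with control samples in blue and *pros*-depleted samples in orange. *pros*-depleted replicate 1 is highest on every axis, at 15461 CPM of markers.

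Progenitor markers moved with the same contrast. Their sum was 297 to 409 CPM in control samples and 754 to 952 CPM in *pros*-depleted samples, and *Sox21a* (2.84), *Dl* (2.84) and *Sox100B* (1.81) had the largest log2 fold changes among those called. *PGRP-LC* is broadly expressed in the gut epithelium, and the part of progenitor or enterocyte transcripts in its level was not tested. Of the markers of visceral muscle, fat body, trachea and haemocytes, 0 were called higher by edgeR or DESeq2 (1 muscle marker was higher at an unadjusted p under 0.05). Visceral muscle markers summed to 25.0 to 31.2 CPM in control samples and 7.77 to 13.8 CPM in *pros*-depleted samples, and most of this difference came from *up*, troponin T, which was called lower (19.6 against 1.37 CPM, log2 fold change -3.82). The other 6 muscle markers were not called and overlapped between groups, and the median log2 fold change of the list was 0.06. Fat body markers summed to 148 to 209 against 44.2 to 64.9 CPM, nearly all from *apolpp* (listed as *Rfabg*), which was called lower (-1.91), while *Lsp2*, *Fbp1* and *Fbp2* did not pass the filter on low counts. The other fat body markers tested, *Yp1* and *Yp2*, had estimates of 0.69 and 1.15 and were not called. Of tracheal and copper cell markers, 3 of 4 and 2 of 2 were tested and edgeR called 0 of each (1 of each was lower at an unadjusted p under 0.05 and by DESeq2). *pros*, *Tk* and the other EE markers fell together, with *Mip* (-7.64), *Dh31* (-6.88) and *Tk* (-6.15) lowest.

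Haemocytes, the blood cells, also express antimicrobial peptides. Their summed markers were 14.3, 35.8 and 17.5 CPM in control samples and 13.0, 11.1 and 7.91 CPM in *pros*-depleted samples, and 0 of the 4 tested were called by edgeR, although 3 were lower at an unadjusted p under 0.05 and DESeq2 called 2 lower. Control replicate 2 was the highest, with *NimC1*, a phagocytosis receptor, at 363 counts against 90 and 106 in the other control samples. The same sample held the most counts of *Drs*, *CecC*, *Dpt* and *CecA2*, antimicrobial peptide genes described below. The part of haemocyte transcripts in their levels was not tested.

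Genes of the pathways that PGRPs feed into were examined as lists. Of 12 genes of the Imd pathway core, all were tested and 0 were called in either direction by edgeR (median log2 fold change -0.11; DESeq2 called 1 higher). At an unadjusted p under 0.05, 3 were lower, *Tab2* (-0.71), *Fadd* (-0.58) and *Uev1A* (-0.44), and 1, *Rel*, was higher. *imd*, the adaptor below PGRP-LC, had 13.1 ± 2.58 CPM in control samples and 11.8 ± 2.98 CPM in *pros*-depleted samples (log2 fold change -0.14, adjusted p = 0.693). *Rel*, which encodes the NF-kB factor Relish, had 192, 102 and 116 CPM in control samples and 308, 387 and 286 CPM in *pros*-depleted samples. All *pros*-depleted samples were higher, and the adjusted p of 0.0112 (log2 fold change 1.26, SE 0.269) missed the threshold.

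Of 9 negative regulators of the Imd pathway, 2 were called higher and 0 lower by edgeR, and DESeq2 called 3 higher and 0 lower (median log2 fold change 0.16). At an unadjusted p under 0.05 in edgeR, 4 were higher, with *POSH* (0.77) beside the 3 described next, and 1, *CYLD*, was lower (-0.51). *dnr1*, which restrains the caspase Dredd, went from 20.7, 15.6 and 14.6 CPM to 35.3, 36.9 and 36.1 CPM (log2 fold change 1.09, SE 0.181, adjusted p = 0.00390). *nub*, a POU transcription factor with an isoform that represses Relish targets, went from 2.89 ± 1.56 to 24.9 ± 7.97 CPM (log2 fold change 3.10, adjusted p = 0.00181), and it is also among the enterocyte markers. *pirk*, an inhibitor that binds PGRP-LC and is itself induced by Relish, had 91.5, 37.3 and 27.0 CPM in control samples and 153, 191 and 86.3 CPM in *pros*-depleted samples. The groups of *pirk* overlapped through control replicate 1, and it was not called (log2 fold change 1.46, SE 0.476, adjusted p = 0.0552).

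Transcripts of antimicrobial peptides, the classical outputs of the Imd and Toll pathways, were scarce in both groups. Only 3 of 15 listed genes passed the filter on low counts, and 0 of them were called by edgeR or DESeq2 (1 had an unadjusted p under 0.05). *Drs*, which encodes Drosomycin, had 204, 559 and 126 counts in control samples and 175, 134 and 79 counts in *pros*-depleted samples (log2 fold change -1.14, SE 0.624, adjusted p = 0.218). *CecC*, a cecropin gene, had 27, 346 and 81 counts against 31, 23 and 7 (log2 fold change -2.89, adjusted p = 0.0693), and *AttD*, an attacin gene, had 132, 7 and 1 against 120, 22 and 42 counts. Control replicate 2 was highest for *Drs* and *CecC*, and no direction was shown for any of the 3. *Dpt*, which encodes the Imd-dependent peptide Diptericin, had 2, 23 and 2 counts in control samples and 11, 6 and 3 counts in *pros*-depleted samples. Other genes that did not pass the filter went either way. *Def* had 3, 0 and 0 counts against 36, 6 and 8, all higher after depletion. *CecA2* had 2, 9 and 2 against 1, 1 and 1, and *AttA* 2, 2 and 1 against 0, 0 and 0, all lower. Counts this low allow no conclusion.

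In the Toll pathway, 1 of 17 genes was called higher and 2 lower by edgeR, and DESeq2 called 2 higher and 2 lower (median log2 fold change -0.09). At an unadjusted p under 0.05 in edgeR, 4 were higher and 3 lower. Besides the genes called by edgeR, these were *Dif* (1.12), *spz* (0.92), *dl* (0.50) and *modSP* (-1.37). *tub*, an adaptor of the receptor, was called higher (12.7 ± 0.962 against 22.5 ± 1.46 CPM, log2 fold change 0.82, adjusted p = 0.00709). *Tl*, the receptor Toll (24.4 ± 6.40 against 6.24 ± 2.69 CPM, -1.97, adjusted p = 0.00444), and *SPE*, the protease that activates its ligand Spätzle (6.19 ± 1.12 against 0.913 ± 0.554 CPM, -2.76, adjusted p = 0.00286), were called lower. Of 5 genes for reactive oxygen, which is the other arm of gut defence, *Nox* was called lower by edgeR (1.79 ± 0.516 against 0.420 ± 0.127 CPM, -2.08, adjusted p = 0.00812). DESeq2 called 3 of the 5 lower and 0 higher, and the median log2 fold change was -0.94. At an unadjusted p under 0.05 in edgeR, *Irc* (-0.94, adjusted p = 0.0133) and *mol* (-2.25, adjusted p = 0.0480) were lower too. Both lay below all control samples in all *pros*-depleted samples. *Duox*, the dual oxidase of gut immunity, had 20, 16 and 10 counts against 13, 3 and 9 (-0.72, adjusted p = 0.380), and no difference was detectable at this depth.

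**Figure D5:**
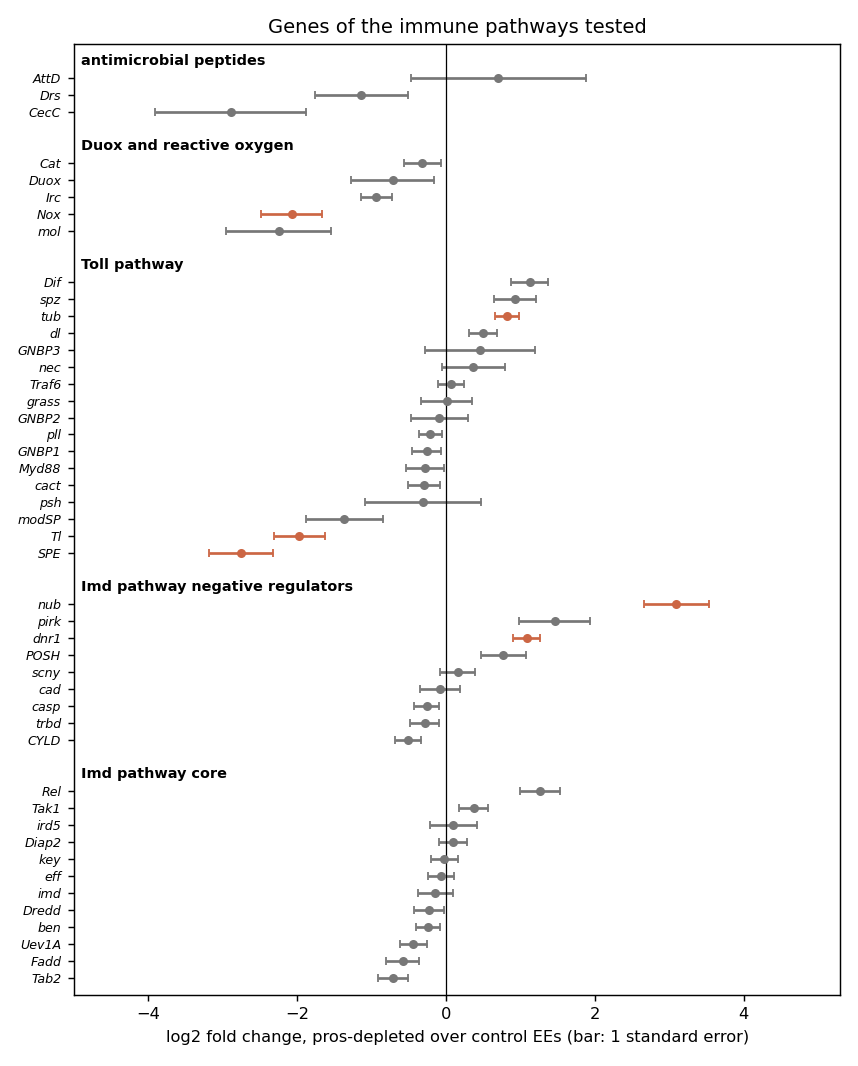
Log2 fold change of the tested genes of the Imd, Toll, reactive oxygen and antimicrobial peptide lists between *pros*-depleted and control EEs, with bars of 1 standard error and called genes in orange. Most genes of the Imd core lie near 0, and *Rel* (1.26), *pirk* (1.46), *dnr1* (1.09) and *nub* (3.10) lie to the right.

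Of the PGRP genes outside the 10, *PGRP-LD*, *PGRP-SB1* and *PGRP-SB2* were at or below 12 counts in every sample and none was tested. *PGRP-SB1*, a further amidase, had 3, 1 and 0 counts in control samples and 6, 9 and 12 counts in *pros*-depleted samples. *PGRP-LD* had 3, 1 and 1 against 0 counts in each *pros*-depleted sample, and *PGRP-SB2* 0, 2 and 0 against 3, 1 and 0. Levels of *PGRP-LD* and *PGRP-SB2*, at or under the floor of 3 counts, allow no comparison. The *pros*-depleted counts of *PGRP-SB1* lay above that floor and above its control counts, but the gene did not pass the filter on low counts.

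The genes whose log2 CPM over the 6 samples followed *PGRP-LC* most closely were *pdgy* (Pearson r = 0.996), *CG11077* (0.995) and *CG32138* (0.994). For *PGRP-SC2* they were *AGO1* (0.994), *CG17652* (0.994) and *CG15255* (0.993). These are descriptions over 6 samples that share the contrast between groups, and they were the highest of all genes tested outside the PGRP genes. The genes nearest to *PGRP-LC* had log2 fold changes of 1.47, 0.58 and 1.04, and those nearest to *PGRP-SC2* 0.23, 0.31 and 1.30.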

How the data were processed

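RNA of sorted EEs was sequenced in 3 control and 3 *pros*-depleted samples. The authors aligned single-end 50 bp reads to BDGP6, assigned them to genes with featureCounts 1.6.3 and deposited raw counts of 17558 genes, without normalization, beside each gene's exonic length. Whether counting used strand, and how reads with several positions were treated, is not given in the sources used here, and RNA amplification can distort levels and makes reads dependent. Groups and replicate numbers are those of the sample labels. The methods speak of independent replicates, and p-values reflect the spread between these samples.

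The 10374 genes that reached 10 counts in 3 or more samples, of either group, were tested. Library sizes (27183747 to 40766059 counts) were scaled by TMM, with factors of 0.946 to 1.12, and groups were compared with the quasi-likelihood test of edgeR 4.0.16 in R 4.3.3, without covariates, with Benjamini-Hochberg adjustment over all genes tested. The thresholds of the paper's methods were used (adjusted p below 0.01, log2 fold change beyond 0.5 in either direction). Standard errors were derived from each log2 fold change and the square root of its F statistic. Exact permutation tests were two-sided, and likeness used log2 CPM with a prior count of 2. DESeq2 1.42.0, other scalings, filters and thresholds, glmTreat, a replicate block, the summed *PGRP-SC1* copies and leaving out each sample were the alternatives. The test was run on simulated counts, with changes planted only in genes of higher count and a spread taken from the trend over genes. That run does not cover genes of low count or unusually large spread. Positions were compared with the BDGP6 reference annotation and were the same for all 10 genes. Tables and figures used Python 3.11.15, pandas 2.3.3 and matplotlib 3.10.9.

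The 10 genes, the pathway lists and the marker lists were chosen with earlier results of these data known, and they lend no independent support. The text names all 10 genes, up to 4 called genes of each pathway list with the largest changes, *imd*, *Rel*, *pirk*, *Drs* and *Duox*, up to 3 called markers of each list, and the 3 genes most like *PGRP-LC* and *PGRP-SC2*. *CecC*, *AttD*, *Dpt*, *NimC1*, *Lsp2*, *Fbp1*, *Fbp2*, *Yp1*, *Yp2*, *mex1*, *Jon99Ci*, *Tab2*, *Fadd* and *Uev1A* were named after their values were seen. So were *Dif*, *spz*, *dl*, *modSP*, *Irc*, *mol*, *POSH*, *CYLD*, *Def*, *CecA2*, *AttA* and *alphaTry*. *apolpp* and 3 other markers were matched by older symbols. Sequences were not used here.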

Additional observations from a re-analysis of the deposited data

How the results depend on the processing

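*PGRP-LC* kept a positive log2 fold change under all 16 alternatives (0.86 to 1.14) and was called in 8 of them. It was not called with an absolute log2 fold change over 1 (0.99), with glmTreat, with the replicate block or in 5 of the 6 fits that left out a sample, each of which has fewer samples. The number of PGRP genes called higher, 1 in the report, was 4 with DESeq2 (with *PGRP-SC1a*, *PGRP-SC1b* and *PGRP-SC2* in addition), 3 with no filter on low counts, 2 with library size without further scaling, 3 with an adjusted p under 0.05, and 0 with a fold change over 1 and with glmTreat. It was 0 to 1 when each sample was left out in turn. The number called lower, 0 in the report, was 1 with an adjusted p under 0.05 (*PGRP-LA*). DESeq2 called 942 genes higher and 1266 lower, an adjusted p under 0.05 gave 1184 and 1519, and glmTreat gave 294 and 540. Leaving out each sample gave 188 to 317 genes higher and 413 to 596 lower. Library size without further scaling moved the median log2 fold change of all genes by 0.12. Estimates that changed sign were those of *PGRP-SD* without control replicate 1 (-0.032) and without *pros*-depleted replicate 2 (-0.14), and of *PGRP-LF* without *pros*-depleted replicate 2 (-0.021), none of them called (0.29 at most for *PGRP-SD* and 0.74 at most for *PGRP-LF* when a sample was left out); the cause was not tested. Same-numbered samples of the 2 groups had correlations of their deviations of -0.16, 0.20 and 0.0995, so the numbers were not taken to pair the samples. With the replicate block, 0 PGRP genes were called higher and 0 lower (*PGRP-LC* 0.97, adjusted p = 0.0133), and 346 genes were called higher and 643 lower. Low counts limit *PGRP-LF*, *PGRP-SA* and both *PGRP-SC1* copies, and RPKM depends on the annotated exonic length.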
